A study of Mus musculus with 8 samples.

Results

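The Sprouty genes Spry1, Spry2 and Spry4 and the Spred genes Spred1, Spred2 and Spred3 were followed in the lungs of mouse pups that carried a lung-targeted, inducible FGF18 transgene, a source of fibroblast growth factor 18. Members were the probe sets of an Affymetrix array annotated to one of these 6 symbols and to no other gene, which gave 21 probe sets of 45101 on the array. Spred1 had 8 of them, Spred2 had 5, Spry4 had 4, Spry2 had 2, and Spry1 and Spred3 had 1 each. A probe set is a group of short probes for 1 transcript, read here as log2 intensity, so that a difference of 1 is a doubling on the linear scale. Probe sets of 1 gene share its transcripts and are not independent. The intensity limit used below lay at log2 6.51, and 17 of the 21 probe sets and 5 of the 6 genes reached it. Spred3 did not.

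Sprouty and Spred proteins are feedback inhibitors of receptor tyrosine kinases such as the FGF receptors. A bound receptor passes its signal through adaptor proteins, RAS, RAF and MEK to the kinase ERK, and ERK activity in turn raises transcription of Sprouty genes, whose products dampen the same route. Spred proteins share the cysteine-rich Sprouty domain and carry an EVH1 domain, through which they recruit the RAS inhibitor neurofibromin to the membrane. In the mouse lung, Spry2 is known from the tips of the branching epithelium, where it opposes FGF10 signalling, and Spry4 from the mesenchyme.

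Lung RNA of 8 FVB/N pups was measured, 1 array per pup, in 4 controls (D02, D40, D50 and D58) and 4 cases (D04, D34, D48 and D52). All 8 carry the same entry for genotype, the inducible FGF18 transgene with SP-C-rtTA and (teto)7-FGF18, in which the surfactant protein C promoter of the distal lung epithelium drives the activator rtTA. Per the series' design text, pups came as pairs of simple and double transgenic littermates from 4 litters and were picked for induction of the transgene. The sources used here give neither the genotype that makes a pup a control, nor its age, nor the inducing treatment, and no label says which pups shared a litter. Littermates are not independent, and the main fits could take no account of litters. Their p-values set the difference between groups against the spread between pups within groups. Lung markers were bright on every array, with log2 intensities of 14.48 to 14.65 for the surfactant gene Sftpc and 13.01 to 13.58 for the alveolar type 1 gene Ager. Case D34 correlated with the other arrays at 0.983 to 0.991, the lowest span of the 8.

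The level of Fgf18 in each pup gives the scale for what follows. It read 7.05, 7.76, 7.11 and 7.07 log2 in controls D02, D40, D50 and D58, and 10.82, 12.09, 9.82 and 7.66 in cases D04, D34, D48 and D52. Cases D34, D04 and D48 thus stood far above every control, in that order, and the library labelled Case D52 lay inside the control range. Cases exceeded controls by 2.85 log2 on average (exact permutation test, two-sided, p = 0.0571, over 70 arrangements). Pups were picked on induction of the transgene, so this is a check of the labels. For D52 the check goes against the label. Abca3, a lipid transporter of type 2 cells, was the 1 gene past the adjusted threshold over all genes. It was as low in D52 (10.27 log2) as in the other cases (10.49 to 10.65, controls 11.34 to 11.56). That fit included D52. In the fit without D52, Abca3 passed as well (limma, -0.90 log2, adjusted p = 0.0152), and D52, with no part in that fit, still read below every control. Abca3 was 1 of 6 genes past the threshold there, and Fgf18 was another. Fgf18 and Abca3 thus place D52 differently. Results are therefore given with and without the library labelled Case D52.

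Promoter sequences of 4 members are shown for reference, and whether they bear on the differences given below was not tested. They come from RefSeq (GRCm38.p6), run 5′ to 3′ on the gene's strand and span 250 bases before to 50 after the start of the gene. Capitals mark each GGAA, or TTCC where it lies on the opposite strand, the core to which ETS factors such as Etv4 and Etv5 bind.
Spry1, chr3:37639697-37639996, + strand: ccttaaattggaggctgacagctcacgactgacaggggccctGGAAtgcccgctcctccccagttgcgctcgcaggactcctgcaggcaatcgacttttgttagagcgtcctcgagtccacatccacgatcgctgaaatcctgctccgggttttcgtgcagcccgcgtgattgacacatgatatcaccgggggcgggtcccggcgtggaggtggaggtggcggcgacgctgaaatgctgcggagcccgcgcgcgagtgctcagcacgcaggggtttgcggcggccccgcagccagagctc
Spry2, chr14:105896770-105897069, - strand: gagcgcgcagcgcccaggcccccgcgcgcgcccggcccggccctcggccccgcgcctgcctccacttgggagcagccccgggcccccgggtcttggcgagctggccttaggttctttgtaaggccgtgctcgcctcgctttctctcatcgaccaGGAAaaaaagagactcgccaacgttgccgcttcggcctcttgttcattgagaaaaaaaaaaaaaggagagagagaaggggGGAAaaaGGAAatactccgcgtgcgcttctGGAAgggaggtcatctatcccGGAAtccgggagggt
Spred1, chr2:117120821-117121120, + strand: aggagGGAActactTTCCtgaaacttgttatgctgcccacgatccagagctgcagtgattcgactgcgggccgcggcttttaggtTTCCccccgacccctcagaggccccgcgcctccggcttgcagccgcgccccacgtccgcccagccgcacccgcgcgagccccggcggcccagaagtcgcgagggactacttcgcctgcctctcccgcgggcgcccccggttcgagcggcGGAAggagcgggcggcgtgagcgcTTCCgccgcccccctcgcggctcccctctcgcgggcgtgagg
Spred2, chr11:19924192-19924491, + strand: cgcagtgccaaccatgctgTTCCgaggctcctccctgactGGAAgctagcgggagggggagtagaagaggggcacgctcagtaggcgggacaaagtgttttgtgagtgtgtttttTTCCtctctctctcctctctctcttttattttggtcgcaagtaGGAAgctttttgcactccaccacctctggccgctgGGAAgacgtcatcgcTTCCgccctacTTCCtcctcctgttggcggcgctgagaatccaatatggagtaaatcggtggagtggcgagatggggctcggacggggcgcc

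The core matched 1 time in Spry1, 5 times in Spry2, 5 times in Spred1 and 7 times in Spred2, on both strands together. It is common, with at least 1 match in 96% of 32851 promoters of the same length and a median of 3. The longer form CCGGAA, which holds the core, matched in Spry2 and not in Spry1, Spred1, Spred2 or Spred3 (14.9% of all promoters). TGANTCA, the site of AP-1 factors, matched in none of these 5 (7.81%). No promoter sequence of Spry4 was at hand, so Spry4 was not searched. A match is a description of these letters and not a binding site.

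Most members were higher in cases D04, D34 and D48 than in controls, by small amounts, and not in the library labelled Case D52. Of the 17 probe sets above the intensity limit, 14 had a higher mean in cases (46.1% of all such probe sets), as had 16 of all 21 (40.9%) and 5 of the 5 genes tested (45.0% of all genes). None of the 5 genes tested passed the threshold over 12856 genes (limma, Benjamini-Hochberg adjusted p = 0.736 at the smallest), where 0.00778% of all genes did, and none without the library labelled Case D52 (0.0467%). At an unadjusted p under 0.05, Spry4 and Spred1 were higher, 2 of 5, against 2.08% of all genes in that direction. Without the library labelled Case D52 this count was 4 of 5 (4.57% of all genes), and it was 0 of 5 without case D34 (1.43% of all genes), and 0 of 5 also without control D02, control D40 or case D48. It was 1 of 5 without control D50 or case D04. For the fits without D02, D40, D48, D50 or D04 no share of all genes was taken, so these counts have no background beside them. The median difference of the 5 genes was 0.29 log2, beside -0.01 over all genes, and 0.36 without D52 and 0.11 without D34.

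**Figure D1:**
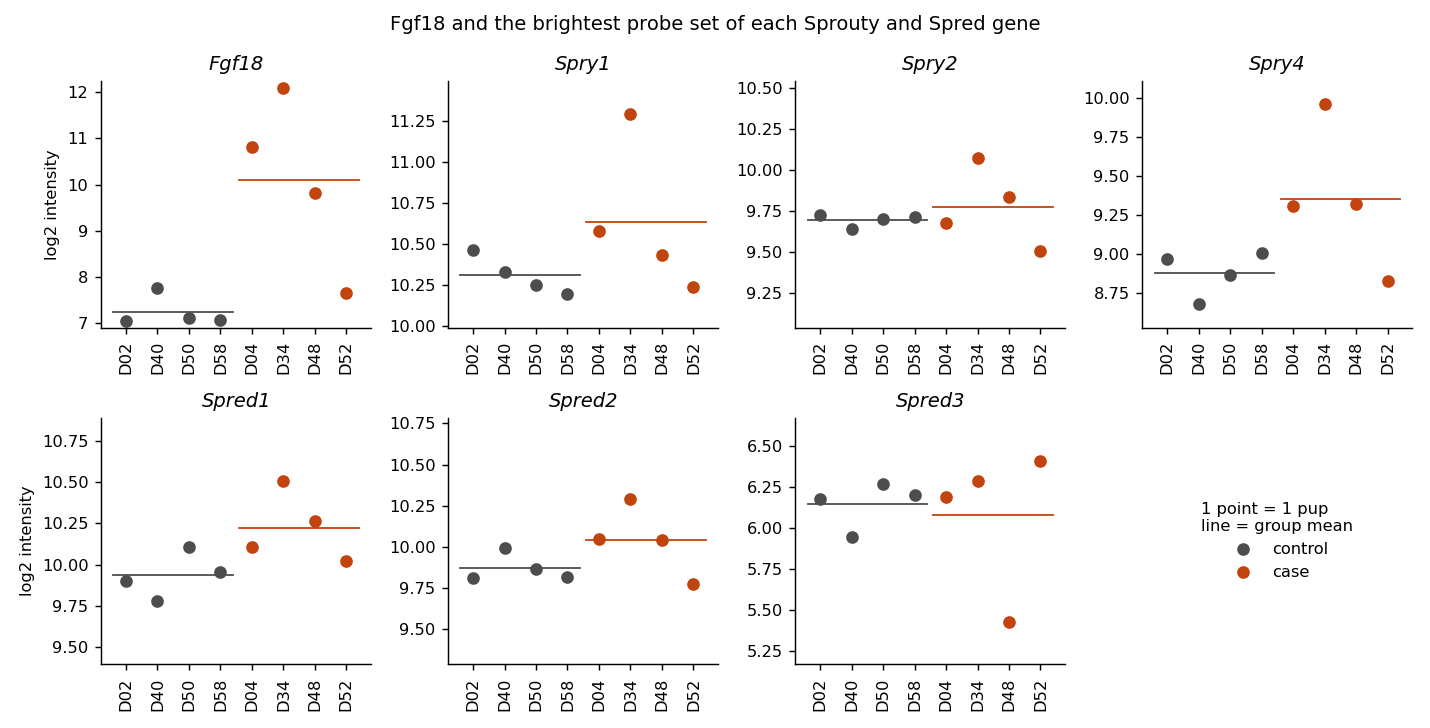
Log2 intensity (vertical axes, which differ in range between panels) of Fgf18 and of the brightest probe set of each gene in each of the 8 pups (horizontal axes), with 1 point per pup and lines at the group means. Case D34 is the highest of the 8 pups for Spry1, Spry2, Spry4, Spred1 and Spred2, while D52 lies within or below the controls for these genes.

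Among the Sprouty genes, Spry4 showed the largest difference. Its brightest probe set (1445669_at) read 8.97, 8.68, 8.86 and 9.01 log2 in controls D02, D40, D50 and D58, and 9.30, 9.96, 9.32 and 8.83 in cases D04, D34, D48 and D52. Cases D04, D34 and D48 lay above every control, and D52 lay inside the control range. The case mean was 9.35 ± 0.46 (SD, n = 4) and the control mean 8.88 ± 0.15 (SD, n = 4), a difference of 0.47 log2 or 1.39-fold (limma, 95% interval 0.03 to 0.91, adjusted p = 0.736). Leaving out the library labelled Case D52 gave 0.65 log2 or 1.57-fold (limma, interval 0.28 to 1.01, adjusted p = 0.177). Without case D34 it was 0.27 log2 (limma, unadjusted p = 0.0649).

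The other Spry4 probe sets gave smaller differences in the same direction. Probe set 1440867_at read 8.36 to 8.69 log2 in controls, and 9.19, 9.27, 8.66 and 8.54 in cases D04, D34, D48 and D52. There D04 and D34 stood above every control, while D48 lay just under control D02. The difference was 0.41 log2 (SE 0.16) at this probe set and 0.21 (SE 0.16) at 1422021_at. The dimmest one, 1422020_at, lay below the intensity limit and differed by 0.30 (SE 0.15).

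Spry1, like Spry4 a Sprouty induced by receptor tyrosine kinases, was by far the highest in case D34. It read 10.46, 10.33, 10.25 and 10.19 log2 in controls D02, D40, D50 and D58, and 10.58, 11.29, 10.43 and 10.24 in cases D04, D34, D48 and D52. D34 stood 1.97-fold above the control mean and D04 1.20-fold, both above every control. D48 and D52 lay inside the control range. The difference of 0.32 log2 (limma, 95% interval -0.10 to 0.75, adjusted p = 0.736) was 0.11 without case D34. It was 0.46 with D52 left out (limma, adjusted p = 0.352).

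Spry2, the Sprouty of the branching epithelium, showed the smallest difference among the 5 genes. Its bright probe set (1436584_at) read 9.73, 9.64, 9.70 and 9.71 log2 in controls D02, D40, D50 and D58, and 9.68, 10.07, 9.84 and 9.51 in cases D04, D34, D48 and D52. The controls spanned a narrow band (SD 0.04), with D34 and D48 above it, D04 inside it and D52 below it. The mean difference of 0.08 log2 had a 95% interval of -0.16 to 0.32 (limma, adjusted p = 0.857). Without case D34 it was -0.02. The second probe set, 1421656_at, lay below the intensity limit and differed by -0.20 (SE 0.14), with the groups overlapping.

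Spred1, whose product recruits neurofibromin to RAS, had 8 probe sets, and 6 of them gave differences between 0.22 and 0.31 log2. The brightest (1423160_at) read 9.90, 9.78, 10.11 and 9.96 log2 in controls D02, D40, D50 and D58, and 10.11, 10.51, 10.27 and 10.02 in cases D04, D34, D48 and D52. D34 and D48 lay above every control, and D04 was level with control D50. The difference was 0.29 log2 or 1.22-fold (limma, 95% interval 0.04 to 0.54, adjusted p = 0.736). It was 0.36 with D52 left out (limma, adjusted p = 0.243) and 0.20 without case D34 (unadjusted p = 0.0604).

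The narrowest controls among the Spred1 probe sets were those of 1443652_x_at, whose suffix marks probes that may also match other transcripts. They read 7.77, 7.73, 7.79 and 7.86 log2, and cases D04, D34, D48 and D52 read 8.07, 8.39, 8.22 and 7.72. Cases D04, D34 and D48 all lay above the controls, and D52 just below them. Without the library labelled Case D52 the difference was 0.44 log2 (SE 0.09), and its adjusted p over all 45037 probe sets (limma, 0.153) was the smallest of the 21 members in that fit. Probe sets 1460116_s_at and 1445228_at gave values near 0. The former was highest in control D40 (9.18) and differed by -0.02 between groups, and the latter, at a mean near log2 4, differed by 0.04.

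Spred2, the close relative of Spred1, gave higher values in cases at 3 of its 5 probe sets. The brightest (1434403_at) read 9.81, 9.99, 9.86 and 9.82 log2 in controls D02, D40, D50 and D58, and 10.05, 10.29, 10.04 and 9.78 in cases D04, D34, D48 and D52. Cases D04, D34 and D48 lay above every control and D52 below every control. The difference was 0.17 log2 or 1.12-fold (limma, 95% interval -0.06 to 0.40, adjusted p = 0.736). It was 0.25 with D52 left out (limma, adjusted p = 0.280) and 0.08 without case D34.

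Probe sets 1441415_at and 1436892_at of Spred2 both differed by 0.21 log2 (SE 0.14 and 0.10). The 2 dimmest, 1441802_at and 1423001_at, differed by -0.08 (SE 0.09) and -0.02 (SE 0.08), at levels of 6.73 to 7.08 log2, close to the intensity limit.

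Spred3, a Spred without the functional KIT-binding domain of its relatives, had 1 dim probe set. It read 6.18, 5.95, 6.27 and 6.20 log2 in controls D02, D40, D50 and D58, and 6.19, 6.29, 5.43 and 6.41 in cases D04, D34, D48 and D52. Case D48 was the lowest pup and D52 the highest, so the groups overlapped. The difference was -0.07 log2 (limma over all probe sets, 95% interval -0.48 to 0.34, adjusted p = 0.938).

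**Figure D2:**
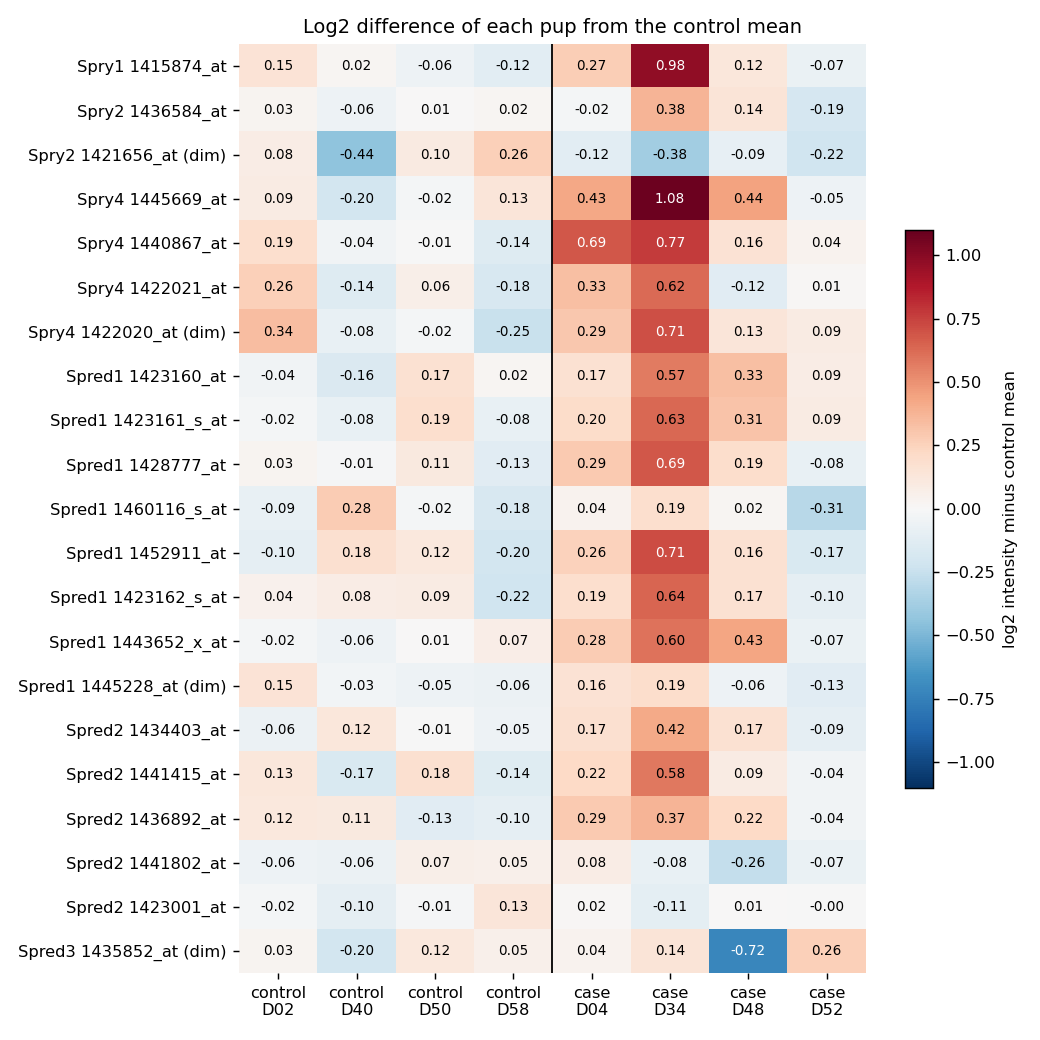
Log2 intensity of each of the 21 probe sets (rows) in each pup (columns) minus the mean of the 4 controls, with red above and blue below that mean; "dim" marks the 4 probe sets below the intensity limit. The column of case D34 is the most intensely red, reaching 1.08 for Spry4, columns D04 and D48 are paler, and the column of D52 is close to white.

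Across pups, D34 led the members. It was the highest of the 8 arrays for 14 of the 17 probe sets above the intensity limit, while it was highest for 23.3% of all 27022 probe sets above the limit. D34 also lay above every control at 14 of 17 (29.2% of all probe sets), D04 at 13 of 17 (16.9%), D48 at 9 of 17 (28.8%) and D52 at 0 of 17 (16.8%). The median distance of these 17 from the control mean was 0.60 log2 for D34, 0.22 for D04, 0.16 for D48 and -0.07 for D52. Over all 27022 probe sets it ran from -0.02 to 0.01 in these pups.

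At gene level, D34 again led and D52 again lay above the controls nowhere, while D04 and D48 changed places. D34 lay above every control in 5 of 5 genes, D48 in 4 of 5 and D04 in 3 of 5, where 26%, 32.1% and 17.3% of all genes did so. D52 did so in 0 of 5, against 16% of all genes. With all 4 cases, no gene of the 5 and none of the 21 probe sets had every case above every control, where 1.38% of genes and 1.17% of probe sets did. Without the library labelled Case D52, Spry4 and Spred2 did, 2 of 5 genes (5.72% of all genes), and 7 of 21 probe sets (4.01% of all probe sets), 4 of them from Spred1. Without case D34 no gene of the 5 (2.65% of all genes) and 0 of 21 probe sets (2.08% of all) did.

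**Figure D3:**
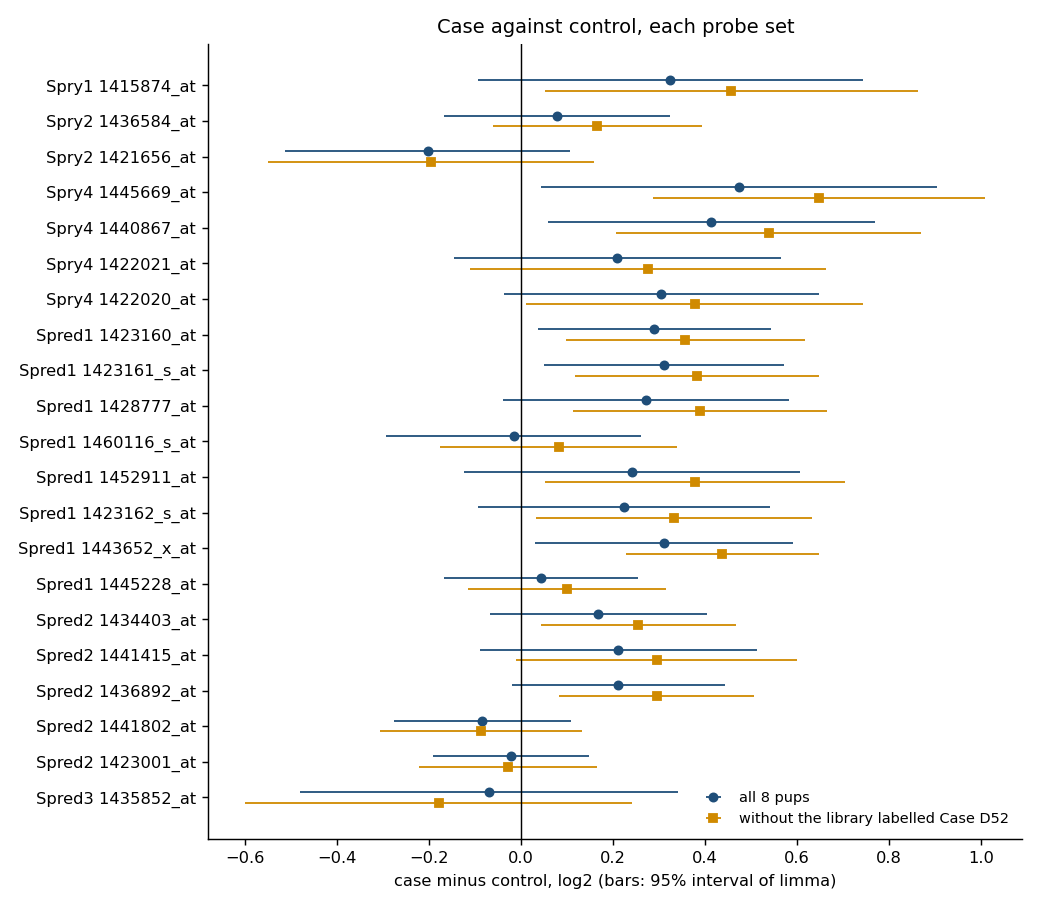
Case minus control difference in log2 intensity (horizontal axis) for each of the 21 probe sets (rows), from limma, with bars for the 95% interval; circles use all 8 pups and squares leave out the library labelled Case D52. Intervals of 5 probe sets lie above 0 with all pups, at Spry4 and Spred1, and those of 12 do without D52, before adjustment over all probe sets.

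At probe set level, 5 of 21 members were higher at an unadjusted p under 0.05 (limma), 3 from Spred1 and 2 from Spry4, where 1.62% of all probe sets were. The count was 12 of 21 without the library labelled Case D52 (3.08% of all probe sets) and 0 of 21 without case D34 (1.20%). No member passed after adjustment in any of these fits, with smallest adjusted p of 0.635 with all pups and 0.153 without D52. Over all probe sets, 0.00444% passed with all pups and 0.0377% without D52.

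Set beside Fgf18, most members were highest in the pup with the most Fgf18 and near the controls in the case pup at the control level. For 9 of the 17 brighter probe sets, cases ran in the order of their Fgf18 level, D34 over D04 over D48 over D52, as 4.80% of all 27022 probe sets did. Those 9 were the Spry1 probe set, 1 of Spry4, 4 of Spred1 and 3 of Spred2. At the brightest probe sets of Spry2, Spry4 and Spred1 the order differed, with D48 level with or above D04 although D04 had more Fgf18. D48 read 9.84 log2 against 9.68 in D04 for Spry2, 9.32 against 9.30 for Spry4, and 10.27 against 10.11 for Spred1. D52 and control D40 had nearly equal Fgf18 (7.66 and 7.76). The 8 pups form a low cluster of 5 and a spread group of 3 in Fgf18, so no correlation with Fgf18 over all pups is given and the relation could not be tested.

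**Figure D4:**
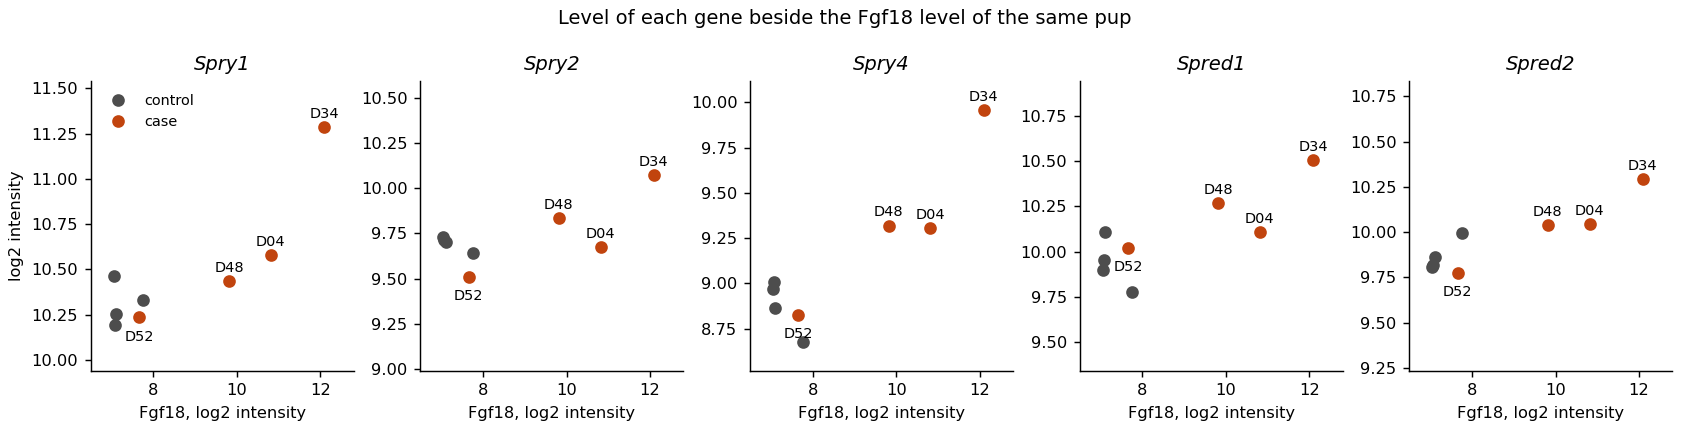
Log2 intensity of the brightest probe set of 5 genes (vertical axes, equal in span) against that of Fgf18 (horizontal axis) in the same pup, with case pups named. D52 sits with the controls on the left, and D34 is highest and farthest to the right in each panel.

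Sex and litter could be followed only in part. By Xist and Eif2s3y, D02, D04 and D34 were female and the other 5 pups male, so the 2 females among the cases were also those with the most Fgf18. With sex as a covariate the difference was 0.38 log2 for Spry4 (limma, unadjusted p = 0.0567), 0.27 for Spred1 (0.0464) and 0.22 for Spry1 (0.189). Among male pups alone, 3 controls and 2 cases of which 1 is D52, it was 0.22 for Spry4, 0.20 for Spred1, 0.08 for Spry1 and 0.02 for Spred2. The authors' deposited table sets the females D04 and D02 against each other. In the authors' deposited table the log2 ratio of D04 over D02 was 3.77 for Fgf18, 0.33 and 0.50 for the brighter probe sets of Spry4, 0.24 for Spred2 (1434403_at), 0.21 for Spred1 (1423160_at), 0.12 for Spry1 and -0.05 for Spry2 (1436584_at).

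The rest of the pathway was read from 3 lists, of which no gene passed the threshold over all genes. Of 5 FGF receptor genes, 3 were higher and 2 lower, with a median difference of 0.01 log2 (-0.01 over all genes). The receptor Fgfr3 differed by -0.16, the decoy receptor Fgfrl1 by -0.10 and the receptor Fgfr1 by 0.17. Of 16 tested feedback regulators and targets of ERK outside the Sprouty and Spred families, 8 were higher and 8 lower, with a median of 0.00. With D52 left out, 7 of the 16 had a higher mean, and their median was -0.03 (-0.02 over all genes). At an unadjusted p under 0.05, 2 of these 16 were higher (2.08% of all genes) and 1 lower (limma). The share of all genes in the lower direction is not given here. With D52 left out 6 were higher at that limit, where 4.57% of all genes were, and 1 lower. The 6 were Dusp4, Dusp6, Etv4, Etv5, Myc and Phlda1, with differences of 0.22 (Etv4) to 0.88 (Myc), and none passed after adjustment.

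Within that second list Myc, a transcription factor, differed by 0.70 log2 (SE 0.23), Dusp6, a phosphatase that inactivates ERK, by 0.38 (SE 0.15) and Lrig1, a membrane inhibitor of ERBB receptors, by -0.26 (SE 0.10). Dusp6 read 10.84, 10.76, 10.77 and 10.87 log2 in controls D02, D40, D50 and D58, and 11.10, 11.61, 11.27 and 10.77 in cases D04, D34, D48 and D52. This is the same arrangement of pups as for Spry4, with D52 among the controls. Of 19 tested docking, RAS-ERK and partner genes, 9 were higher and 10 lower (median 0.00). The ERK kinase gene Map2k1 differed by 0.26 (SE 0.07), the caveolin gene Cav1 by -0.18 (SE 0.10) and the kinase gene Mknk1 by -0.13 (SE 0.07).

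The genes whose levels over the 8 pups were most like each member are given as a description, by Pearson correlation among 12856 genes. They were Trim41 (0.989), E4f1 (0.988) and Naa30 (0.987) for Spry4, 5730480H06Rik (0.990), Stc1 (0.989) and Ccdc83 (0.988) for Spry1, and Trim23 (0.990), Wdr86 (0.988) and Cdc14a (0.987) for Spry2. For Spred1 they were Vps54 (0.992), Blvra (0.988) and Mrpl24 (0.984), and for Spred2 Mmp2 (0.992), Tbx4 (0.990) and H6pd (0.985). No gene appears for more than 1 member. Case D34, the highest pup for each of these members, can weigh heavily in a Pearson value. By Spearman rank, the same pairs ran from 0.83 (Spry1 with Ccdc83) to 1 (Spred1 with Vps54, Blvra and Mrpl24). Correlations between members ran from 0.73 for Spred1 with Spred2 to 0.91 for Spry1 with Spry4. By Spearman rank correlation they ran from 0.40 for Spry1 with Spred1 to 0.81 for Spry2 with Spry4. Many other genes were more like each member, as the other members took places 212 to 1356 in its order of Pearson correlation.

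Among case pups, D34 lay farthest from the control mean for each list of cell type markers except alveolar type 2, where D52 did. Beside the counts of markers given here and below, 45.0% of all genes had a higher mean in cases. All 10 of 10 markers of club and ciliated cells had lower means in cases. Their median difference from the control mean was -0.36, -1.07, -0.48 and -0.11 log2 in cases D04, D34, D48 and D52. Their summed intensity ran from 44128 to 53259 in controls and from 21223 to 49510 in cases. Of heart and skeletal muscle markers, 9 of 10 were tested and 8 had lower means. They stood at -0.66, -1.76, -0.49 and 0.28 in the same order of pups, with sums of 18729 to 25751 in controls and 5255 to 24479 in cases. No marker was at 0 in any pup.

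Smooth muscle markers, lower in 6 of 6, stood at -0.46, -0.75, -0.19 and -0.08 (sums 18199 to 18922 in controls and 10947 to 17535 in cases). Endothelial markers, lower in 6 of 6, stood at 0.01, -0.31, -0.05 and -0.04 (20242 to 22561 and 16711 to 22237). Alveolar type 1 markers, lower in 5 of 5, stood at -0.09, -0.54, -0.10 and 0.02 (22163 to 22875 and 15806 to 22197). Of 6 alveolar type 2 markers 5 were tested, 2 higher and 3 lower, and they stood at -0.03, 0.05, -0.11 and -0.29 (48725 to 53705 and 44852 to 51801). Macrophage markers, 3 higher and 2 lower of 5, stood at -0.18, 0.34, 0.07 and 0.15 (2605 to 2895 and 2558 to 3126). In whole lung, fewer cells of a type and less RNA per cell cannot be told apart. The part of these shifts in the levels of the Sprouty and Spred genes was not tested. As a measure of RNA integrity, the 3′ probe set of Actb exceeded the 5′ one by 0.43, 0.38, 0.39 and 0.32 log2 in cases D04, D34, D48 and D52, and by 0.36 to 0.40 in controls. Its part was not tested either.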

How the data were processed

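Each pup's total lung RNA was biotin-labelled and read on an Affymetrix array of its own, per the labels' protocols. The authors deposited intensity values per probe set, on a linear scale. For software, the submitters' processing notes list affy. How background, normalization and summary were handled is not given in the sources consulted. Both deposited tables hold the same intensities (largest difference 0). The authors' further column of log2 ratios equals log2 of D04 over D02 at 45101 of 45101 probe sets within 1e-06.

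Intensities were taken to log2 without further scaling. The 64 Affymetrix control probe sets were left out. Genes were named from the platform annotation. At gene level, probe sets with 1 symbol and a mean at or above the 40th percentile (log2 6.51) were kept, and the brightest stood for its gene (12856 genes). A second fit took all 45037 probe sets without a limit. Groups were compared with limma 3.58.1 (lmFit, eBayes) under R 4.3.3, Benjamini-Hochberg adjusted, with a threshold of 0.05. Figures and promoter counts used Python 3.11.15 and matplotlib 3.10.9. Fits that leave out an array kept the same genes. Fgf18 was compared by an exact permutation test. The fit was tested on simulated data. The labels tie no pups to litters, so the fits reported have no litter block.

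Named genes were Fgf18, the 6 members, the 3 genes most correlated with each tested member and, of each pathway list without a gene past the threshold, the 3 with the smallest p. Abca3, Sftpc, Ager, the values of Dusp6 per pup and Dusp4, Etv4, Etv5 and Phlda1 were added after their values were seen. The members and lists were chosen with earlier results of these data known. List genes with no probe set above the limit were not analysed here. Alternatives changed the filter, the normalization, the summary per gene, the prior, the array weights, the covariate, the pairing and the arrays. The number of arrays limits the precision.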

Additional observations from a re-analysis of the deposited data

Results flagged for a closer look

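Within-group outliers were sought in 44 sets of 4 pups by Dixon's criterion, which chance meets in about 5% of sets, and 4 met it. Fgf18 in control D40 (7.76 log2) stood above the other controls (7.05 to 7.11), with a gap of 0.921 of the range. The Spred1 probe set 1423162_s_at in control D58 (7.99) stood below the other controls (8.26 to 8.31), with a gap of 0.842. The dim Spred1 probe set 1445228_at in control D02 (4.05) stood above the other controls (3.84 to 3.87), with a gap of 0.852. The Spred2 probe set 1423001_at in case D34 (6.77) stood below the other cases (6.88 to 6.90), with a gap of 0.858.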

How the results depend on the processing

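No member passed the adjusted threshold at gene level or at probe set level under any alternative run, and the smallest adjusted p of a member was 0.114 (Spry4 with array weights, limma). The number of genes higher at an unadjusted p under 0.05, 2 of 5 as reported, was 1 with the mean of probe sets, 1 with sex as a covariate, 0 in male pups only and 3 with array weights (Spry1, Spry4 and Spred2), and ran from 0 to 4 when each array was left out. With array weights Spred1 was 0.14 log2 (limma, adjusted p = 0.294). With a replicate block over all 24 possible pairings of controls and cases the number of such genes ran from 0 to 3, and the lowest adjusted p of Spry4 and Spred1 was 0.501 (limma). Probe sets with every case above every control numbered 0 to 7 over the arrays left out, 7 without case D52 and 2 without control D02 or control D50. Among these alternatives, shares over all genes or probe sets were taken only without D52 and without D34. The other counts have no background beside them. The Fgf18 difference ran from 2.18 to 3.66 log2, and its exact permutation p was 0.0286, the smallest that 35 arrangements allow, without case D52. Signs turned in 15 member values, none larger than 0.15 log2 in size (the largest was Spred3 without case D48). For Spry2 they were -0.027 with array weights and -0.013 in male pups, and -0.022 to 0.17 over the arrays left out. Spred2 1423001_at gave 0.044 with quantile normalization and 0.028 with median centring, and -0.054 to 0.023 over the arrays left out. Spred3 gave 0.023 with quantile normalization and -0.18 to 0.15 over the arrays left out. Spred1 1460116_s_at gave 0.034 with median centring and -0.083 to 0.081 over the arrays left out, and Spred1 1445228_at gave -0.017 with sex as a covariate and -0.0078 to 0.10 over the arrays left out. The causes were not tested. The number of arrays, 4 a group, and the spread between case pups limit the precision. The SE of Spry4 was 0.20 log2 with all arrays, 0.16 without case D52 and 0.13 without case D34.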
